A study of Komagataella phaffii CBS 7435 with 54 samples.

Results

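The genes described here are 35 transcripts of the yeast Komagataella phaffii, known as Pichia pastoris. Their median level was moderately higher in the slow chemostats and early in the retentostat, and then fell during the rest of the retentostat run. They were chosen by their measured values among 5077 probes whose systematic name is a locus tag starting with PAS_, out of 5371 probes in all. A member had to lie at least 0.4 and less than 1 on the log2 scale above the chemostat at 0.1 per h when grown at 0.025 per h, less than 1 above it at 65 h of the retentostat, and more than -1 relative to it at 545 h. It also had to fall by 0.5 or more between 21 h and 545 h. The chemostat criteria left 731 of the 5077 probes, the fall left 58 of these, the limit at 65 h left 35, and the limit at 545 h removed no further probe.

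RNA came from glucose-limited aerobic cultures in 9 conditions with 3 numbered replicates each. The 4 chemostat conditions had dilution rates of 0.025, 0.05, 0.075 and 0.1 per h, and the 5 retentostat conditions were sampled after 21, 65, 116, 380 and 545 h. All cultures carried the same strain, labeled CBS 7435, which per the methods was 1 isolate with the FLO8 gene deleted, a regulator of flocculation and filamentous growth. Each replicate was hybridized together with a common pool of P. pastoris RNA on a pair of 2-color arrays with opposite dyes, 54 arrays in all.

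A chemostat holds cells at a specific growth rate equal to the dilution rate, because medium enters and culture leaves at the same rate. In a retentostat the effluent passes through a filter that keeps the cells back, so that glucose per cell declines and growth slows toward zero while the biomass accumulates. Run time in the retentostat is therefore also a scale of decreasing growth rate, and of increasing cell density and culture age. In yeasts, transcripts that respond to glucose limitation or stress commonly rise as growth slows, while those of ribosome production and of the cell cycle commonly fall. The members were selected on following neither course over the whole range. The array annotation and the gene table give these members locus tags without names or functions, so no role is stated for any of them.

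A retentostat run is 1 culture sampled at several times. The methods describe duplicate chemostats and a pair of retentostat runs, so the 3 numbered replicates of a condition cannot all be separate cultures, and SDs and p values measure the spread between numbered replicates. In the culture channel, 89.9% to 98.4% of the spots of an array exceeded the background clearly by the scanner's own mark. The median culture signal per array ranged from 2564 to 7889 intensity units in the chemostats and from 1419 to 4522 in the retentostat. Comparisons between the systems cross this difference, and its effect was not tested. Of the 35 members, 34 were well above background on every array, and no member was saturated on any. Their probes were brighter than most, with a median culture signal of 16959 intensity units against 4248 for all probes. It was 6422 for the other probes that met the chemostat criterion and 5072 for those that met the retentostat criterion. Shares of called probes below are not matched for signal. Replicates of 1 condition had a median SD of 0.0617 for the members and 0.0570 for all probes on the log2 scale.

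Levels below are log2 ratios of culture over pool minus the mean of the 3 replicates at 0.1 per h. The median member stood at 0.16 at 0.075 per h, 0.32 at 0.05 per h and 0.53 at 0.025 per h. In the retentostat it stood at 0.65 at 21 h, 0.44 at 65 h, 0.29 at 116 h, -0.07 at 380 h and -0.11 at 545 h. The values at 0.025 per h and at 21, 65 and 545 h selected the members and are a description without a test. The median profile thus climbed through all chemostats and at the start of the retentostat, and each later sampling time lay below the one before it.

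**Figure D1:**
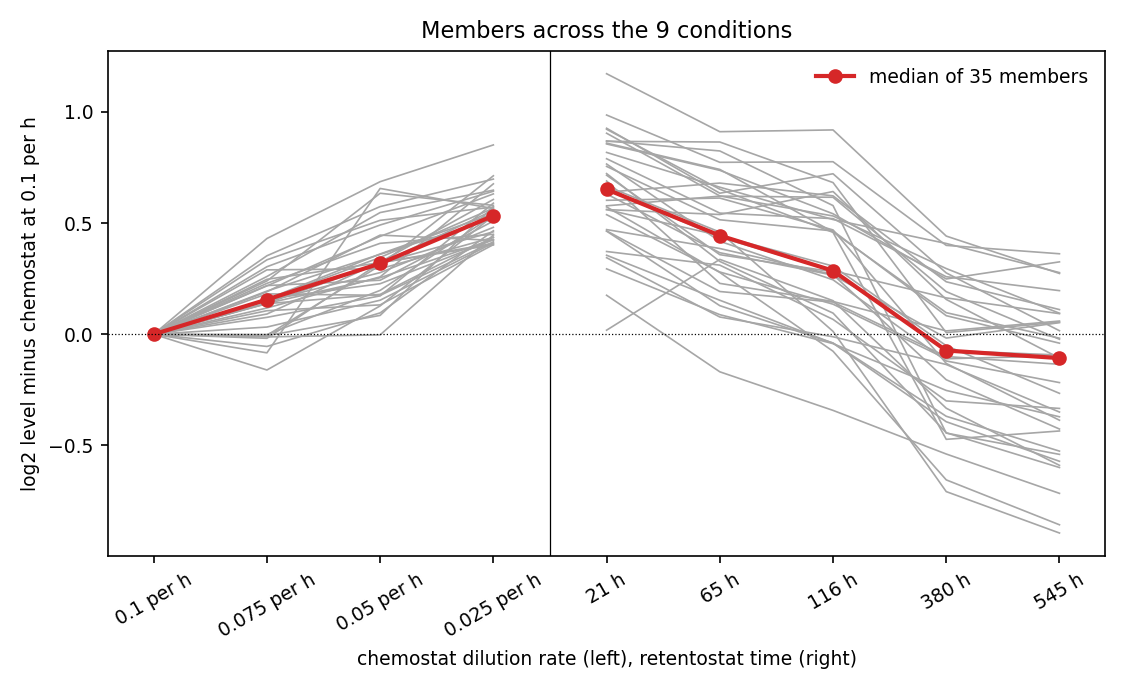
Level of each of the 35 members (gray lines) and their median (red) in log2 units relative to the chemostat at 0.1 per h, for the 4 chemostats on the left and the 5 retentostat times on the right. The median peaks at 0.65 at 21 h and reaches -0.11 at 545 h.

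The members differed in where they peaked and where they ended. The highest condition mean was at 21 h in 22 members, at 0.025 per h in 8, at 0.05 per h in 2, at 65 h in 2 and at 116 h in 1. The lowest was at 545 h in 21 members, at 0.1 per h in 8, at 0.075 per h in 3 and at 380 h in 3. Between 0.025 per h and 21 h, 24 members went up and 11 went down, across a change of bioreactor. Single later steps also went up, in 4 members from 21 h to 65 h, in 4 from 65 h to 116 h and in 6 from 380 h to 545 h. PAS_chr1-4_0611 was at 0.02 at 21 h and at 0.34 at 65 h. At 545 h, 23 members were below and 12 were above their mean at 0.1 per h. The fall in the retentostat therefore ended below the level of the fastest chemostat in some members and short of it in others.

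The values at the limits of the rule show how close its edges are. At 0.025 per h, PAS_chr4_0785 was just inside the lower limit with 0.40177 and PAS_chr3_0550 just outside with 0.39964, while PAS_chr1-3_0245 was the highest inside with 0.85 and PAS_c131_0020 the nearest outside the upper limit with 1.103. At 65 h, PAS_chr3_0293 was inside with 0.91 and PAS_chr4_0207 outside with 1.01. For the fall from 21 h to 545 h, PAS_chr3_0181 was inside with -0.528 and PAS_chr1-1_0352 outside with -0.496. At 545 h the lowest member was PAS_chr2-1_0149 with -0.89, and no probe was kept out by that limit alone. The lower chemostat limit alone kept out 244 probes and the fall alone kept out 274.

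The samples at 116 h, 380 h, 0.05 per h and 0.075 per h played no part in the choice and were used for tests. They are other samples, but 116 h and 380 h lie between 21 h and 545 h of the same runs, and 0.05 and 0.075 per h lie between the chemostats used by the rule. The direction of the changes among them is for that reason not independent of the rule. Each test came from a linear model over all 27 replicates in limma with Benjamini-Hochberg adjustment over 5371 probes, and a change was called at an adjusted p value below 0.05.

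Between 116 h and 380 h of the retentostat, 31 of the 35 members fell and none rose, against a background of 20.4% of all probes called lower. At an unadjusted p value below 0.05, 32 members were lower and 0 were higher. Of all 5371 probes, 1284 were lower and 1323 were higher at that threshold. All 35 changes were negative, from -1.02 to -0.11 with a median of -0.36, while the median of all probes was 0.01. All 3 replicates at 380 h were below all 3 at 116 h in 31 members, as in 27.5% of all probes. Among the 628 other probes that met the retentostat criterion, 72.3% were called lower with a median of -0.27, and among the 696 other probes that met the chemostat criterion, 25.1% were called lower with a median of -0.04.

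**Figure D2:**
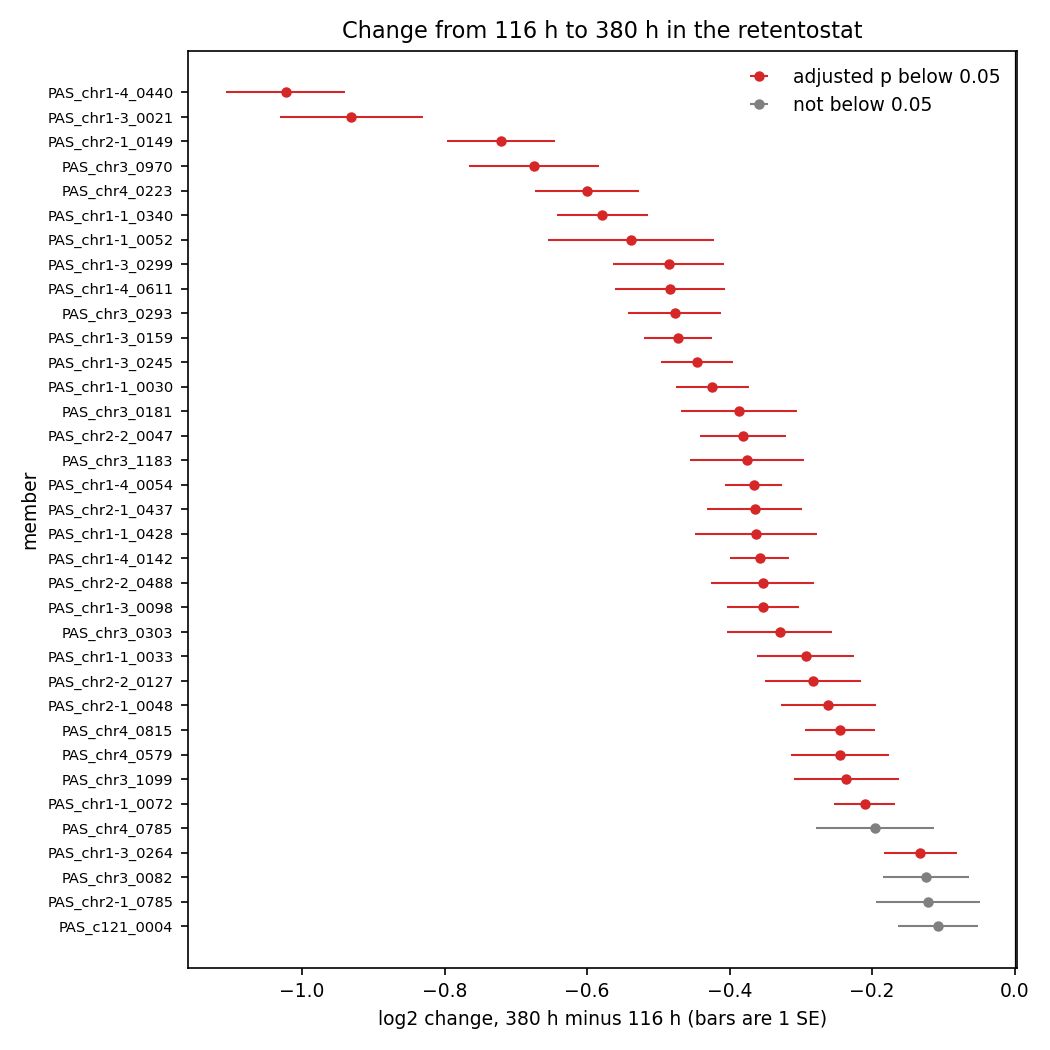
Log2 change from 116 h to 380 h for each of the 35 members, with bars of 1 standard error from the model. All changes are below 0, 31 have an adjusted p value below 0.05 (red), and the largest is -1.02 for PAS_chr1-4_0440.

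PAS_chr1-4_0440 had the largest of these falls. Its replicates were at -0.09, 0.05 and 0.05 at 0.1 per h, at -0.15, -0.25 and -0.08 at 0.075 per h, at 0.24, 0.09 and 0.05 at 0.05 per h and at 0.50, 0.45 and 0.65 at 0.025 per h. In the retentostat they were at 0.77, 0.94 and 0.90 at 21 h, at 0.71, 0.93 and 0.83 at 65 h and at 0.57, 0.64 and 0.52 at 116 h. They were at -0.57, -0.45 and -0.32 at 380 h and at -0.36, -0.53 and -0.73 at 545 h. The level thus stayed high for the first 3 sampling times and was below the fast chemostat in every replicate of the last 2. The change from 116 h to 380 h was -1.02 ± 0.08 (SE, n = 3 against 3, limma adjusted p = 7.8e-09), which is 2.03-fold lower and the single member beyond 2-fold.

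PAS_chr1-3_0021 followed with -0.93 ± 0.10 (limma adjusted p = 2.6e-07). Its replicates were at 0.29, 0.64 and 0.44 at 116 h and at -0.46, -0.47 and -0.49 at 380 h, without overlap. It was the member of weakest signal, with a median of 122 intensity units in the culture channel. It was well above background on all 6 arrays at 116 h but on 4 of 6 at 380 h, 2 of 6 at 545 h and 5 of 6 at 0.1 per h. Its fall was -1.58 in the alternative with a background offset of 0 and -2.11 with the log ratio of the scanner software, against -0.93 here.

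In PAS_chr2-1_0149 the replicates at 116 h were at 0.14, -0.14 and 0.04 and those at 380 h at -0.81, -0.70 and -0.61. The change was -0.72 ± 0.08 (limma adjusted p = 2.0e-07). This member had the largest fall from 21 h to 545 h, -1.56, and the lowest final level.

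PAS_chr3_0970 was at 0.73, 0.65 and 0.67 at 116 h and at 0.05, -0.04 and 0.00 at 380 h. It dropped by 0.67 on the log2 scale to the level of the fastest chemostat and stayed there, with 0.09, 0.04 and 0.03 at 545 h (limma adjusted p = 4.9e-06 for the change). Its replicates at 21 h, 0.55, 1.17 and 0.88, were the most scattered of any member and condition, with an SD of 0.31.

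**Figure D3:**
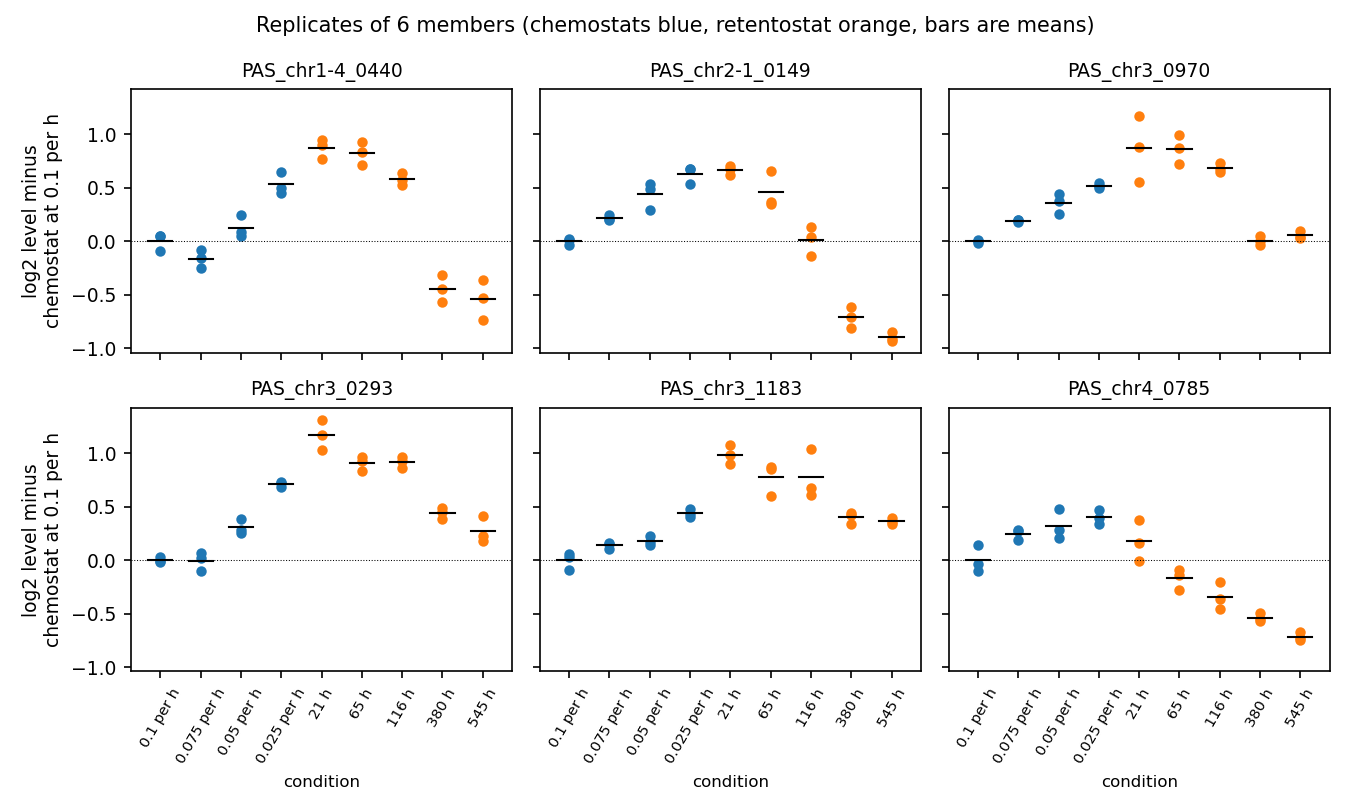
Replicates (points) and means (bars) of 6 members in log2 units relative to the chemostat at 0.1 per h, chemostats in blue and retentostat times in orange. PAS_chr1-4_0440 and PAS_chr2-1_0149 end below 0, PAS_chr3_0970 ends near 0, PAS_chr3_0293 and PAS_chr3_1183 end above 0, and PAS_chr4_0785 declines from 0.025 per h onward.

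The next 4 falls were of similar size. In PAS_chr4_0223 the replicates went from 0.61, 0.38 and 0.42 at 116 h to -0.18, -0.18 and -0.03 at 380 h (change -0.60, limma adjusted p = 1.3e-06). In PAS_chr1-1_0340 they went from 0.03, -0.16 and -0.10 to -0.68, -0.72 and -0.57 (change -0.58, limma adjusted p = 3.1e-07). In PAS_chr1-3_0299 they went from 0.79, 0.48 and 0.66 to -0.01, 0.28 and 0.20 (change -0.49, limma adjusted p = 3.8e-05). In these 3 members every replicate at 380 h was below every replicate at 116 h. In PAS_chr1-1_0052 the groups touched, with 0.33, -0.17 and 0.13 at 116 h and -0.69, -0.46 and -0.17 at 380 h. Its change of -0.54 had an adjusted p value of 0.00086 in limma.

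The 4 smallest called falls were those of PAS_chr4_0579 (-0.24), PAS_chr3_1099 (-0.24), PAS_chr1-1_0072 (-0.21) and PAS_chr1-3_0264 (-0.13), with adjusted p values from 0.00045 to 0.042 in limma. In PAS_chr1-1_0072 the replicates lay close together, at 0.00, -0.08 and -0.04 at 116 h and at -0.30, -0.25 and -0.21 at 380 h, so that a small change was well separated. In PAS_chr1-3_0264 they overlapped, with 0.20, 0.17 and 0.08 at 116 h and 0.01, -0.05 and 0.09 at 380 h. The calls of PAS_chr1-3_0264 and PAS_chr3_1099 were lost in several alternative settings.

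No call was made between 116 h and 380 h for 4 members, named here after their values were seen: PAS_c121_0004 (-0.11), PAS_chr2-1_0785 (-0.12), PAS_chr3_0082 (-0.12) and PAS_chr4_0785 (-0.20), with adjusted p values from 0.063 to 0.19 in limma. PAS_c121_0004 remained at 0.37, 0.43 and 0.43 at 380 h, after 0.53, 0.51 and 0.51 at 116 h. PAS_chr4_0785, whose probe had the highest culture signal of the members, was already at -0.20, -0.46 and -0.37 at 116 h and reached -0.57, -0.50 and -0.55 at 380 h. Its replicates were at 0.47, 0.40 and 0.34 at 0.025 per h and at 0.37, -0.01 and 0.16 at 21 h, with a lower mean at 21 h and a slight overlap.

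The chemostats not used by the rule were compared with each other. At 0.05 per h, 19 of the 35 members were higher than at 0.075 per h and none was lower, against a background of 17.4% of all probes called higher. At an unadjusted p value below 0.05, 24 members were higher and 0 were lower. Of all 5371 probes, 1321 were higher and 679 were lower at that threshold. Of the 696 other probes with the chemostat criterion, 458 were higher and 2 were lower. Changes were positive in 34 members and ranged from -0.01 to 0.74 with a median of 0.18, and the median of all probes was 0.03. All 3 replicates at 0.05 per h were above all 3 at 0.075 per h in 19 members, as in 27.8% of all probes. Among the 696 other probes with the chemostat criterion, 54.2% were called higher with a median of 0.18, so the members' share of 54.3% was that of chemostat-selected probes at large.

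The number of called members in this comparison rested on the replicates of both chemostats. It was 11 without replicate 1 or without replicate 2 at 0.075 per h, and 12 without replicate 1 at 0.05 per h. It was 9 with median centring in place of LOESS and 9 with the authors' processed table. The share of all probes called was not counted under these settings, so no background stands beside these counts.

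PAS_chr1-3_0021 had the largest rise between these chemostats, from -0.09, 0.18 and -0.33 at 0.075 per h to 0.68, 0.72 and 0.56 at 0.05 per h. Its change was 0.74 ± 0.10 (SE, limma adjusted p = 3.0e-05), a 1.67-fold difference, and it was well above background on all 6 arrays of both conditions. PAS_chr3_0303 went from 0.23, 0.31 and 0.18 to 0.68, 0.63 and 0.60 (change 0.39, limma adjusted p = 0.00061). In both members the replicates of the slower chemostat were all above those of the faster one, and their means did not go up further at 0.025 per h. These means were 0.66 and 0.63 at 0.05 per h and 0.57 and 0.58 at 0.025 per h.

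The other 3 of the 5 largest rises belonged to members that stayed near the 0.1 per h level at 0.075 per h or below it. PAS_chr2-2_0488 went from -0.09, -0.05 and 0.08 to 0.23, 0.28 and 0.45 (change 0.34, limma adjusted p = 0.0019). PAS_chr3_0293 went from 0.07, -0.10 and 0.02 to 0.28, 0.26 and 0.39 (change 0.31, limma adjusted p = 0.0014) and was at 0.73, 0.68 and 0.72 at 0.025 per h. In PAS_chr1-4_0440, described above, the change was 0.29 (limma adjusted p = 0.016), and this call was lost without replicate 1 at 0.05 per h (adjusted p = 0.090) or replicate 2 at 0.075 per h (adjusted p = 0.072).

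Both changes occurred in the same members in 18 of 35 cases, 51.4%, which were called higher at 0.05 than at 0.075 per h and lower at 380 h than at 116 h. Of all probes, 270 met both conditions, 5.03%, and of the 696 and 628 other probes with the chemostat or the retentostat criterion, 16.2% and 10.4% did. The signs alone were opposite in this way in 34 members and in 1619 of all 5371 probes. They were so in 369 of the 696 and 317 of the 628 other probes. The rule favored these signs in the members.

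**Figure D4:**
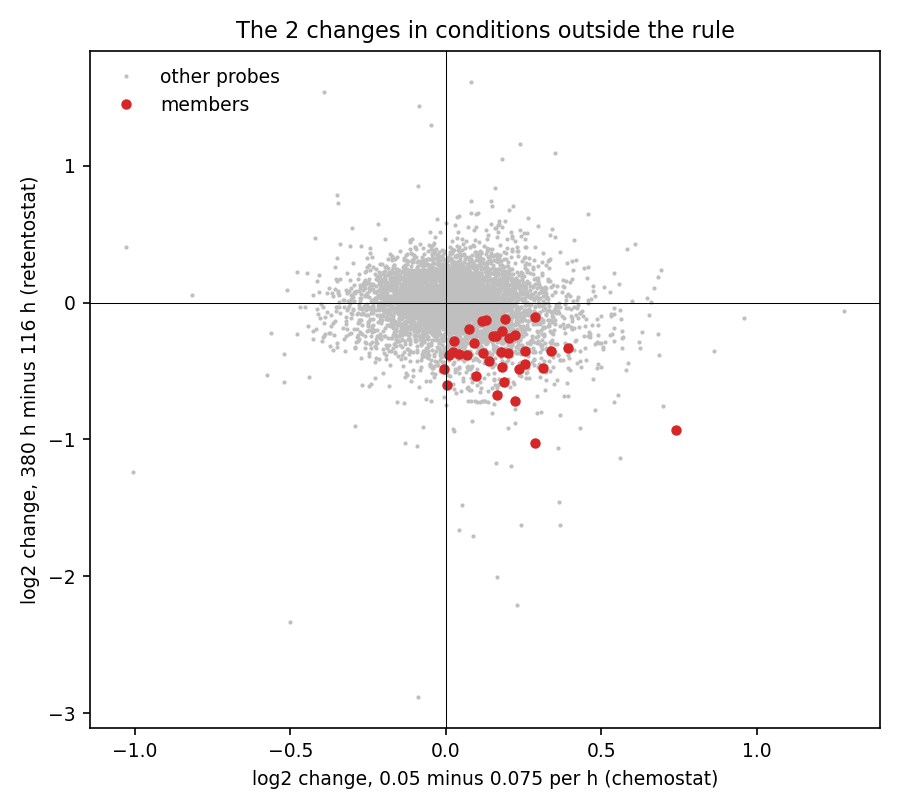
Log2 change from 0.075 to 0.05 per h in the chemostats (horizontal) against log2 change from 116 h to 380 h in the retentostat (vertical), for the 35 members (red) and all other probes (gray). Of the members, 34 lie in the lower right quadrant, with a median of 0.18 on the horizontal and -0.36 on the vertical axis. Of all 5371 probes, 1619 lie in that quadrant.

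Whether the response to slower growth differed between the systems was tested as an interaction, the change from 116 h to 380 h minus the change from 0.075 to 0.05 per h, a comparison added after the values were seen. The rule had chosen members for opposite changes in other samples of these systems, so the direction of the interaction was not independent of it. The interaction was negative and called in 34 of 35 members (limma, adjusted p value below 0.05), against a background of 21.9% of all probes, with a median of -0.49. Of the 696 other probes with the chemostat criterion 46.1% were called lower, and of the 628 with the retentostat criterion 52.5%. The member without a call was PAS_chr4_0785, with -0.27 ± 0.12 (SE, limma adjusted p = 0.074). The steps of growth rate differ in size between the systems, and growth rate, cell density, culture age and bioreactor change together, so their parts in the difference cannot be told apart.

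The late retentostat was also set against the slowest chemostat that the rule did not use, 0.05 per h. At 380 h, 28 of the 35 members were lower and 3 were higher than at 0.05 per h, against a background of 37.5% of all probes called lower and 44.0% called higher, with a median of -0.39. This comparison shares its samples with both of the others. The median of the 696 other probes with the chemostat criterion was 0.84, and 93.2% of them were higher at 380 h. The median of the 628 other probes with the retentostat criterion was -0.98, and 90.3% of them were lower. The median of the members lay between these values and had the sign of the second.

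In 4 members the level at 380 h was more than 2-fold below that at 0.05 per h. They were PAS_chr2-1_0149 (-1.15), PAS_chr1-1_0340 (-1.15), PAS_chr1-3_0021 (-1.13) and PAS_chr3_0303 (-1.003), each with an adjusted p value below the threshold in limma. Of all 5371 probes, 369 were called lower by more than 2-fold in this comparison. So were 304 of the 628 other probes with the retentostat criterion and 0 of the 696 with the chemostat criterion. In PAS_chr1-1_0340 the replicates were at 0.55, 0.60 and 0.32 at 0.05 per h and at -0.68, -0.72 and -0.57 at 380 h. The groups lay far apart, with every replicate at 380 h below every replicate at 0.05 per h.

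The 3 members that were higher at 380 h than at 0.05 per h, named after their values were seen, were PAS_chr3_0181 (0.24), PAS_chr3_1183 (0.22) and PAS_chr1-1_0033 (0.16). This count was 1 without replicate 2 at 0.05 per h, with median centring and at an adjusted p value below 0.01. In PAS_chr3_0181 the groups overlapped, with -0.03, -0.19 and 0.21 at 0.05 per h and 0.20, 0.27 and 0.24 at 380 h. They had hardly changed between 0.075 and 0.05 per h, with log2 changes of 0.01, 0.04 and 0.09 and adjusted p values of 0.95, 0.74 and 0.34 in limma. In PAS_chr3_1183 the replicates were at 0.14, 0.17 and 0.23 at 0.05 per h, at 0.43, 0.47 and 0.40 at 0.025 per h and at 0.98, 0.90 and 1.08 at 21 h. They were at 0.61, 1.04 and 0.68 at 116 h and at 0.44, 0.42 and 0.34 at 380 h. At 545 h, a condition of the rule, they were at 0.34, 0.35 and 0.40, the highest final level of the 35 and still above all replicates at 0.05 per h.

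The members were also counted by their final level relative to 0.1 per h. Of the 12 above, 10 were called lower at 380 h than at 116 h with a median of -0.29, and 5 were called higher at 0.05 than at 0.075 per h. Of the 23 below, 21 were called lower with a median of -0.37, and 14 were called higher. Of all probes, 20.4% were called lower and 17.4% higher in these comparisons. Of the other probes with the retentostat criterion 72.3% were called lower, and of those with the chemostat criterion 54.2% were called higher. No test was made between these subsets, since the level at 545 h was part of the rule.

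Over the 9 condition means, the 595 pairs of members correlated with a median Pearson r of 0.81, and 3 pairs were below 0. All pairs share arrays, and the rule fixes much of this likeness, so the values are a description. PAS_chr1-4_0142 was closest to the mean of the other members with r = 0.98, followed by PAS_chr2-1_0437 with 0.97. PAS_chr3_1183 with 0.61 and PAS_chr4_0785 with 0.63 were the least alike, the first with a high level late in the retentostat and the second with a mean that was already below 0 at 65 h. Among probes that are not members, Pipas_chr3_0190 (r = 0.974), PAS_chr1-4_0273 (0.973) and PAS_chr4_0624 (0.970) were most like the mean member over the same 9 means. All 3 missed the limit of 0.4 at 0.025 per h, with 0.26, 0.37 and 0.37. Pipas_chr3_0190 also missed the limit for the fall, with -0.31, and its systematic name does not start with PAS_.

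All 35 members matched the reference gene table of strain GS115 (RefSeq, ASM2700v1), and 17 of them, 48.6%, lay on chromosome 1, which holds 30.5% of the matched genes on the array. Chromosomes 2, 3 and 4 held 7, 7 and 4 members. No pair of members lay within 5 genes of each other and 3 pairs lay within 10. These pairs were PAS_chr1-3_0098 with PAS_chr1-3_0299, PAS_chr1-1_0030 with PAS_chr1-1_0033, and PAS_chr3_0293 with PAS_chr3_0303, and their profiles over the 9 means correlated with r = 0.61, 0.82 and 0.25. The 70 genes directly beside a member included 22 that were lower at 380 h than at 116 h, 31.4%, and 10 that were higher, with a median change of -0.04, where 20.4% of all probes were lower and 20.2% higher. The gene models of the members had a median length of 1530 bases, from 216 to 3735, against 1198 for all matched genes.

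The arrays lay on 9 slides, and some conditions shared a slide. On the slide with 2 arrays each of 380 h and 116 h, all 35 members were lower at 380 h, with a median of -0.48. The median of all probes there was 0.002. On the 2 slides that held both 0.05 and 0.075 per h, 25 and 31 members were higher at 0.05 per h, with medians of 0.17 and 0.16. All probes had medians of 0.03 and 0.04 on them. On the 2 slides that held both 380 h and 0.05 per h, 30 members each were lower at 380 h, with medians of -0.37 and -0.38, although on the second the dyes were not balanced. All probes had medians of 0.041 and 0.045 in that comparison. The direction of the members' median was therefore the same within slides as over all arrays.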

How the data were processed

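The authors deposited scanner output of 54 arrays (Feature Extraction 11.5.1.1), with median signals and local backgrounds as intensities and a log10 ratio per spot, and a processed table of log2 ratios. Per the methods, the authors made the latter with normexp, LOESS and Aquantile steps. The direction of that table is not stated, and 18 of 54 columns ran opposite to the labeled dyes, so it served as an alternative after those columns were turned.

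The median signals were corrected by normexp (offset 50), and LOESS was applied to each array (limma 3.58.1, R 4.3.3) without outlier spots, 0.676% of all, and without the 536 control spots of each array. Spots were averaged per probe and dye pairs per replicate, culture over pool as labeled. Aquantile changed no log2 ratio. A model with 9 condition means was fitted to 27 replicates with eBayes (18 residual degrees of freedom). Array number limits the precision. The fit was tested on simulated replicate values with independent noise, and the rule on planted values. Background correction, LOESS, averaging of spots and dyes, and shared cultures or slides were not simulated.

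The members and lists were chosen with earlier results of these data known. Named members are the 8 largest and 4 smallest called falls from 116 h to 380 h, the 5 largest called rises from 0.075 to 0.05 per h, those at the limits of the rule, those of highest and lowest signal, and the 3 most similar other probes. Functional lists were not used because no table read here pairs the array identifiers with gene names or functions. The study's gene list pairs some of them with reading frame numbers. The probe of FLO8 was not identified here, and its signal was not checked. Deviations of same-numbered replicates correlated with 0.143, 0.231 and 0.288 between 0.05 and 0.075 per h, above the limit of 0.1 used here. The correlations were -0.284, -0.039 and -0.007 between 380 h and 116 h, below that limit. So were those between 380 h and 0.05 per h, with -0.038, -0.219 and 0.026. This limit does not show which samples came from the same culture. The alternatives covered background correction, normalization, source of ratios, outlier spots, dim probes, replicate block, samples in the fit, slide and dye terms, thresholds, and each replicate left out. Array pairs formed by slide and the interaction were added after the data were seen.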

Additional observations from a re-analysis of the deposited data

Results flagged for a closer look

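The change from 116 h to 380 h in the retentostat differed from the change from 0.075 to 0.05 per h in the chemostat in 34 of the 35 members (limma interaction, adjusted p value below 0.05), against 21.9% of all probes called lower. The median difference was -0.49 on the log2 scale, and all 35 were negative. The comparison was added after the values were seen, and the rule had chosen members for opposite changes in other samples of the same systems.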

How the results depend on the processing

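The number of members ranged from 29 to 39 in 8 alternatives and from 34 to 41 when single replicates were omitted. With median centring, 22 of its 29 members were among the 35. With the 2-fold criterion of the methods added, 1 member was lower at 380 h than at 116 h, 0 were higher at 0.05 than at 0.075 per h, 4 were lower at 380 h than at 0.05 per h and 2 had an interaction. Of all 5371 probes, 18, 1, 369 and 36 met the same criteria, in this order and in the same directions. The count of 19 higher at 0.05 than at 0.075 per h fell to 9 with median centring, 9 with the processed table, 9 at an adjusted p value below 0.01, 12 with only the replicates compared and 10 with array pairs formed by slide, an alternative added after the data were seen. The causes were not tested. Among the alternatives and the fits without a replicate, all probes were counted only with the 2-fold criterion. The other counts have no background of their own. The 3 members higher at 380 h than at 0.05 per h became 1 with median centring and at an adjusted p value below 0.01, and 0 with the 2-fold criterion. No other count of called members moved by over 1.5 times in alternatives that kept all replicates. With each replicate left out, members called ranged from 29 to 32 for 380 h against 116 h, from 11 (without replicate 1 or 2 at 0.075 per h) to 20 for 0.05 against 0.075 per h, from 25 to 29 for 380 h against 0.05 per h and from 31 to 35 for the interaction.

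The replicate number as a block gave 32, 19, 28 and 35 called members for the same 4 comparisons. Deviations of same-numbered replicates exceeded the limit of 0.1 between 0.05 and 0.075 per h, which per the paper were independent cultures. There the block left the count at 19, of which 18 were called without it. The deviations did not exceed that limit in the other comparisons, where no count moved by over 1.5 times. The samples at 116 h and 380 h nevertheless came from the same runs, and which replicate came from which run is not given. In 4 of 9 conditions the arrays of a dye pair lay on different slides, and 16 of 27 pairs shared one.

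Changes of named members kept their sign in all 143 values under alternatives and all 486 with a replicate left out. The fall of PAS_chr1-3_0264 lost its call in 8 and that of PAS_chr3_1099 in 3, with adjusted p values up to 0.19 and 0.11 in limma. The rise of PAS_chr1-4_0440 lost its call in 3, with adjusted p values up to 0.090, and the fall of PAS_chr4_0785 gained one in 6. The faint signal of PAS_chr1-3_0021 limits the size of its changes, from -2.11 to -0.84 for the fall.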
